A study of Mus musculus with 2 samples.

Results

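CpG-rich promoters at which no open chromatin peak was found numbered 532 among 8233 CpG-rich promoters of protein-coding genes in mouse hippocampus, or 6.46%. GENCODE M21 lists 20807 protein-coding genes on chromosomes 1 to 19, and all of them were considered. A promoter was counted as CpG-rich when the window of 500 bp on either side of the 5′ end of the gene had an observed to expected CpG ratio above 0.6 and a GC content above 55% in mm10. It is called closed here when neither library had a peak of its larger peak list within 500 bp of any annotated transcript start of the gene, and open when both libraries had one. By these rules 7408 CpG-rich promoters were open, 293 had a peak in 1 library, and 6786 promoters below the CpG or GC limit were closed. The peaks chose the members, so that their closed state is a description and carries no test.

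The data are DNase-seq, in which the enzyme DNase I cuts accessible DNA and the cut sites are sequenced, from hippocampus of female B6CASTF1/J mice, an F1 cross, aged 8 to 10 months. The study has 1 group of 2 libraries, biological replicates 1 and 2. Each library came from a pool of 2 biosamples labelled as a layer of hippocampus, and the labels do not say which layer, nor whether the pools came from different animals. The larger peak lists held 98902 peaks in replicate 1 and 130199 peaks in replicate 2, of which 76774 and 106888 were distal, meaning more than 500 bp from every protein-coding transcript start. Read depth is unknown, because the lists hold peaks and no read totals. The labelled tissue was checked on genes chosen with earlier results known: Prox1, the factor of dentate granule cells, Zbtb20, Emx1, Lhx2 and Wfs1 had a promoter peak in both libraries, as did Camk2a of excitatory neurons, Gfap of astrocytes, Mog of oligodendrocytes and Cx3cr1 of microglia, while Alb, Ins2 and Myod1 had none. Gad2 of GABAergic neurons, checked with them, had a promoter peak in replicate 2 and none in replicate 1. The promoters of Alb, Ins2 and Myod1 lie below the CpG or GC limit, so they say little about closed CpG-rich promoters. Bulk tissue mixes these cell types, and a site open in few cells cannot be told apart from a site weakly open in many.

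CpG islands are stretches in which CpG dinucleotides have been kept because they are mostly unmethylated. Most of them lie at promoters and are accessible in nearly every cell type, whether or not the gene is strongly transcribed. A known exception is the set of islands at regulators of embryonic development, many of which are held by Polycomb complexes in differentiated cells, and a smaller set at germline genes that gain DNA methylation in somatic cells. DNA methylation and Polycomb marks were not measured in these libraries.

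The 200 bases upstream of the 5′ end are shown for a member of each of the 4 transcription factor or signalling classes with the most closed promoters, because these classes carry the main result. Each is the member of its class with the most distal peaks within 50 kb, by the mean of both libraries. The sequences are from RefSeq's GRCm38.p6 (mm10), 5′ to 3′ on the gene's strand, with every CpG in capitals. Gbx1, a homeobox factor of the hindbrain and forebrain, had 15 CpG in chr5:24527203-24527402 (minus strand). Tfap2e, an AP-2 factor known from the olfactory bulb, had 11 CpG in chr4:126736241-126736440 (minus strand). Foxe1, the forkhead factor of thyroid development, had 18 CpG in chr4:46343409-46343608 (plus strand), a window that overlaps an exon of the noncoding gene Gm12446. Wnt6, a secreted Wnt ligand, had 25 CpG in chr1:74771692-74771891 (plus strand).
Gbx1: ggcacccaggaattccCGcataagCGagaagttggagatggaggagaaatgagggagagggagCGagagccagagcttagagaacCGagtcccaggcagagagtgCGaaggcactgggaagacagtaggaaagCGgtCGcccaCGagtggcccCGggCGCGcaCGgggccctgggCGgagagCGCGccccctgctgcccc
Tfap2e: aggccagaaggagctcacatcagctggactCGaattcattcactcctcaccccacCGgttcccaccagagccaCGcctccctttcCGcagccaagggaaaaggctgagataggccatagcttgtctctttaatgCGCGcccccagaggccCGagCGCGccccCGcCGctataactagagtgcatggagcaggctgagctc
Foxe1: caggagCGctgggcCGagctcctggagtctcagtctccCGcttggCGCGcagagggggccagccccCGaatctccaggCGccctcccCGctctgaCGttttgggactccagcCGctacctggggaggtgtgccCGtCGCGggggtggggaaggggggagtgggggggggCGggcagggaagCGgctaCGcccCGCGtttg
Wnt6: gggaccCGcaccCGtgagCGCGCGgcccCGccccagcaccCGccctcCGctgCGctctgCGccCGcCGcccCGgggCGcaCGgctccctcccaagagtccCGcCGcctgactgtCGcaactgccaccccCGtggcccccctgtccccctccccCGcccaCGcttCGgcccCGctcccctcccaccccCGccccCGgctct

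Developmental regulators made up the largest recognisable share of the closed promoters. The Hox, other homeobox, forkhead, Sox, T-box, basic helix-loop-helix, other developmental factor and signalling ligand classes together had 145 of 373 CpG-rich promoters closed (38.9%). They were 27.3% of the closed promoters and 4.53% of all CpG-rich promoters. Germline genes had 16 of 49 closed. All remaining classes together had 371 of 7811 closed (4.75%). In single libraries 9.17% of CpG-rich promoters had no peak in replicate 1 and 7.31% had none in replicate 2. The developmental classes stood at 45.3% in replicate 1 and 43.4% in replicate 2, so the order of the groups was the same in each library. No test was made, since the members were chosen by these peaks and genes are not replicates.

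**Figure D1:**
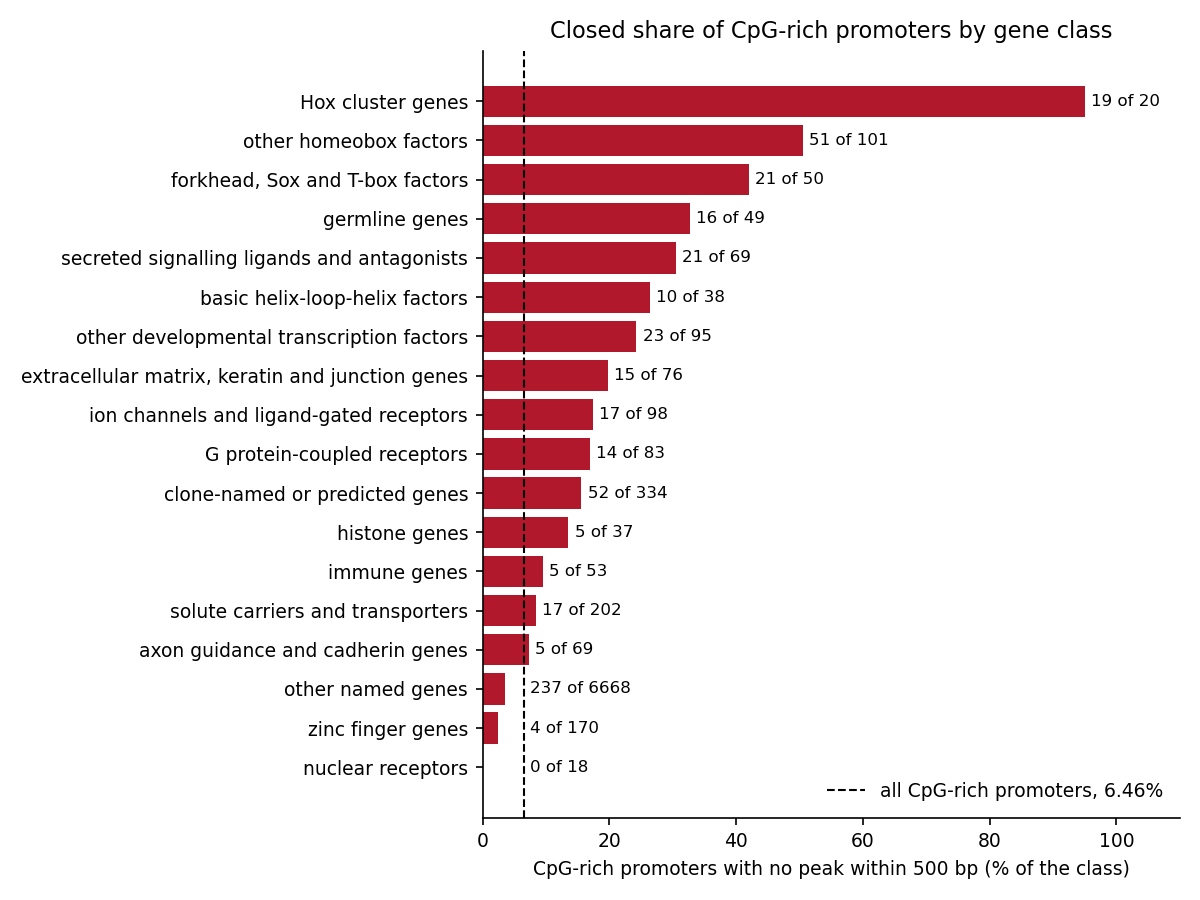
Bars give the percentage of CpG-rich promoters of each gene class with no peak within 500 bp of a transcript start in either library, with the number closed and the number of CpG-rich promoters beside each bar, and the dashed line marks 6.46% for all CpG-rich promoters. Hox genes reach 95%, the other developmental classes lie between 24.2% and 50.5%, and zinc finger genes and nuclear receptors lie below the line.

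Hox genes, which pattern the body axis behind the forebrain, had 19 of 20 CpG-rich promoters closed, and Hoxa7 was the open one. The other homeobox factors had 51 of 101 closed. Forkhead, Sox and T-box factors had 21 of 50 closed, signalling ligands and antagonists 21 of 69, basic helix-loop-helix factors 10 of 38 and other developmental factors 23 of 95. Within these classes the families differed. T-box factors, which specify mesoderm, heart and limb, had 6 of 7 closed, with Tbx3 open. Wnt ligands had 11 of 13 closed, with Wnt7a open in both libraries. Forkhead factors had 11 of 28 closed. The closed ones were Foxb1, Foxb2, Foxd1, Foxd3, Foxe1, Foxe3, Foxf1, Foxi3, Foxl1, Foxl2 and Foxn4, and the 16 open ones included Foxo1, Foxo3, Foxk1 and Foxp1 as well as the developmental factors Foxc1, Foxc2, Foxd2 and Foxj1. Sox factors had 4 of 14 closed, namely Sox7, Sox14, Sox17 and Sox18. Sox2, Sox9 and Sox21 of neural stem cells and glia, and Sox8, were among the open ones. Pou factors had 1 of 9 closed, Pou4f1 of sensory neurons, and its paralogue Pou4f2 was open, as were Pou3f1, Pou3f2 and Pou3f3 of the forebrain. Nkx factors had 5 of 8 closed, Dlx factors 3 of 5, Gata factors 2 of 2 and Fgf ligands 1 of 6. Klf factors, many of which are expressed widely, had 1 of 14 closed.

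Among the other classes, extracellular matrix, keratin and junction genes had 15 of 76 promoters closed (19.7%), ion channels 17 of 98 (17.3%), G protein-coupled receptors 14 of 83 (16.9%) and clone-named or predicted genes 52 of 334 (15.6%). Histone genes had 5 of 37 closed, immune genes 5 of 53 and solute carriers 17 of 202. Axon guidance and cadherin genes had 5 of 69 closed. Several of these shares moved by over 1.5 times with 1 library. From replicate 1 alone they were 39.5% for matrix genes, 28.9% for G protein-coupled receptors, 18.9% for immune genes and 14.5% for axon guidance genes, and from replicate 2 alone 21.1%, 21.7%, 13.2% and 10.1%. Zinc finger genes had 4 of 170 closed (2.35%), nuclear receptors 0 of 18, and the 6668 genes with no class of their own 237 (3.55%), or 5.74% from replicate 1 alone. Clustered protocadherins and the olfactory class had 2 and 1 CpG-rich promoters, with none closed.

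The closed promoters included genes with known roles in hippocampal neurons. The following were picked after their values were seen. Slc32a1, the vesicular GABA transporter, had its nearest peak at 2874 bp in replicate 1 and 2854 bp in replicate 2. Gad2, another GABAergic gene with a CpG-rich promoter, had a peak in replicate 2, at 279 bp, and none nearer than 32645 bp in replicate 1. Itpka, a kinase of dendritic spines, had its nearest peak at 834 and 824 bp, and Kcnj4, an inward rectifier channel, at 512 and 523 bp. Rims3 and Jph3, of the presynaptic active zone and of membrane junctions, had peaks at 979 and 952 bp and at 874 and 894 bp. In these 4 genes the closest peak therefore lay outside the 500 bp window by less than 500 bp. Adcy1, a calcium-stimulated adenylyl cyclase, had its nearest peak at 7629 and 1819 bp, Nptxr, the neuronal pentraxin receptor, at 5330 and 5320 bp, and Grik3, a kainate receptor subunit, at 12380 and 12400 bp. Drd2, the dopamine D2 receptor, lay farthest, at 64347 and 45668 bp. Reln, the matrix protein of Cajal-Retzius cells and interneurons, had peaks at 14974 bp in replicate 1 and 724 bp in replicate 2, where the libraries disagreed.

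The rule's limits cut through groups of similar genes. Just inside the distance limit were Ank1 at 504 bp, Npbwr1 at 507 bp and Insm1 at 509 bp, and just outside were Htr6 at 500 bp and Mapk8ip1 at 496 bp. For the CpG ratio, Erbb3, Ly6g6c and Dll4 were just inside at 0.6002, 0.6002 and 0.6008, and P2rx5 and Gm13290 just outside at 0.5984 and 0.5980. For GC content, Tcte3, Eomes and Gm4767 were just inside at 55.045%, 55.1% and 55.1%, and Ppp1r36, Cxcl16 and Helt just outside at 54.9%, 54.8% and 54.8%.

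Germline genes form the other recognisable class, but their share depends on CpG content. It was 32.7% by the rule used, 9.09% at a CpG ratio above 0.75 and 15.4% at a GC content above 60%. The 16 closed ones were Adad1, D1Pas1, Ddx4, Dmc1, Fkbp6, Mael, Mei1, Mov10l1, Rnf212, Slc25a31, Spata18, Sycp1, Sycp2, Sycp3, Tdrd1 and Tex12. They act in meiotic chromosome pairing (Sycp1, Sycp2, Sycp3, Tex12), meiotic recombination (Dmc1, Mei1, Rnf212) and the piRNA pathway that silences transposons (Mael, Mov10l1, Tdrd1, Ddx4). Their median CpG ratio was 0.678, against 0.757 for the closed developmental promoters and 0.722 for the remaining closed ones. It was not the lowest of any class, as closed matrix gene promoters had 0.658. The palindrome CACGTG, the E-box bound by Myc, Max, MGA and related factors, was present in the window of 13 of the 16 closed germline promoters. It was present in 13 of 31 open germline promoters (41.9%), in 22.0% of all closed CpG-rich promoters, in 23.0% of open CpG-rich promoters and in 17.3% of all protein-coding promoters. In the 300 bp upstream it was found in 11 of 16 closed and 7 of 31 open germline promoters, against 12% of all closed, 10.6% of all open CpG-rich and 7.31% of all protein-coding promoters. Adad1, Dmc1 and Spata18 were the closed germline genes without it. The class was defined by gene symbols, and its open members include genes with broader use, such as Tex10 and Tex264.

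The upstream 200 bases of Sycp1, Sycp3 and Tex12, which build the synaptonemal complex between paired chromosomes, are shown because each holds the E-box. They are from RefSeq's GRCm38.p6, 5′ to 3′ on the gene's strand, with CACGTG in capitals, and were chosen after the matches were known. Sycp1 is chr3:102936101-102936300 (minus strand), Sycp3 is chr10:88459369-88459568 (plus strand) with the word at 2 places, and Tex12 is chr9:50561326-50561525 (minus strand).
Sycp1: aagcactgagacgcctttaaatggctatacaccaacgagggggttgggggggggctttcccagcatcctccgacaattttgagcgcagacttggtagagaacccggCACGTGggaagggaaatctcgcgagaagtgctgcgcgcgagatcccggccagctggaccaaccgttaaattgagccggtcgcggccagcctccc
Sycp3: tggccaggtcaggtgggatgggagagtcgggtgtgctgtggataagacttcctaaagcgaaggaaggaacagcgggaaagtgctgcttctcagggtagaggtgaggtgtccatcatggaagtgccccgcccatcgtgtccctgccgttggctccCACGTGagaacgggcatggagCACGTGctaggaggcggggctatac
Tex12: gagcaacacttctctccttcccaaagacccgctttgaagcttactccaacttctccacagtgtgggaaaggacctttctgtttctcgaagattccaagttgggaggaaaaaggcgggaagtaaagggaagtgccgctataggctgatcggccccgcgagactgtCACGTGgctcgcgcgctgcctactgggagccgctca

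Some words bound by widely expressed activators were less common in closed than in open CpG-rich promoters, chiefly those of ETS factors, NRF1, YY1 and the cyclic AMP response element. Others, such as the GC box, CACGTG and the E2F words, showed a small or opposite gap, as given below. The 16 words were searched on both strands of the promoter windows, and overlaps between different words were allowed. The ETS word CCGGAAG was found in 12.4% of closed and 32.3% of open CpG-rich windows, beside 19.5% of all protein-coding windows. The NRF1 word, of 10 letters, was found in 4.32% of closed and 19% of open ones, beside 9.07% of all. The YY1 word, of 11 letters, was found in 0 of 532 closed and 258 of 7408 open windows (3.48%), beside 1.61% of all. TGACG, the core of the cyclic AMP response element, was found in 51.7% of closed and 64.5% of open windows, beside 46.3% of all, and the full element TGACGTCA in 2.26% and 5.39%, beside 3.33% of all. A match is a run of letters and not a bound site.

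The ZBTB33 word, of 10 letters, was in 0.564% of closed and 1.85% of open windows, beside 0.827% of all. For most of the other words the gap was smaller, and CCAAT had the widest of them in percentage points. GGGCGG, the GC box of Sp and Klf factors, was found in 93.4% of closed and 95.1% of open windows, beside 61.4% of all. TATAAA was found in 14.8% and 15%, beside 32.2% of all, and CCAAT in 57.5% and 63.0%, beside 70.3% of all. CACGTG was found in 22.0% and 23.0%, beside 17.3% of all, GTTGCC, a core of the RFX site, in 33.1% and 33.9%, beside 32.2%, and TGANTCA of AP-1 in 10.7% and 11.2%, beside 18.8%. TAATTA of homeodomain factors was found in 6.58% and 6.41%, beside 14.9% of all. The E2F words TTCGCGC and TTGGCGC were found in 13% and 10.5%, beside 5.29%, and in 13.7% and 12.9%, beside 7.43%. CAGCTG was found in 41.5% and 39.1%, beside 41.8%.

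**Figure D2:**
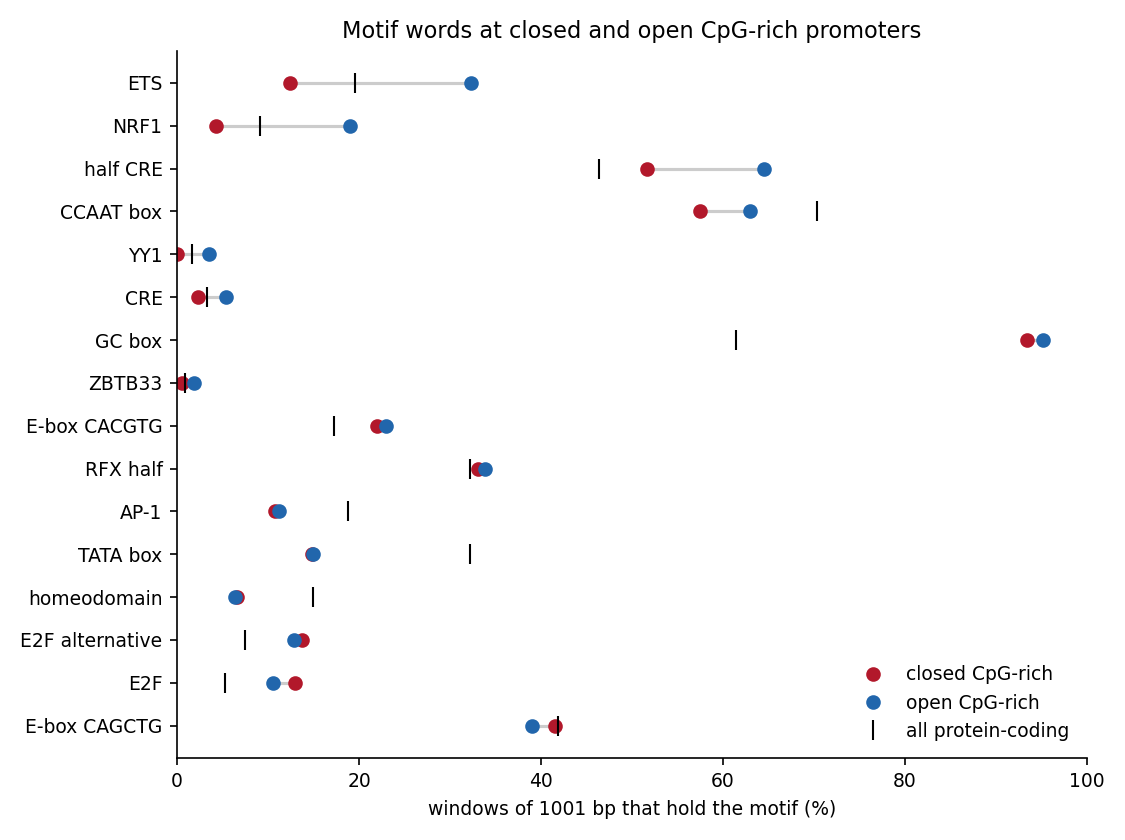
Each row is a motif word, and the x axis gives the percentage of promoter windows, 500 bp on either side of the 5′ end, that hold it on either strand, for closed CpG-rich promoters (red), open CpG-rich promoters (blue) and all protein-coding promoters (black tick). The widest gaps are those of the ETS word, at 12.4% of closed and 32.3% of open windows, and the NRF1 word, at 4.32% and 19%.

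The ETS and NRF1 gaps were seen at all levels of CpG and GC content, which bear on how often such words occur. In the 4 bins of CpG ratio the ETS word was in 13.6%, 11.3%, 11.5% and 12.9% of closed promoters, against 29.5%, 31.4%, 35.5% and 31.7% of open ones, from the lowest ratio to the highest. The NRF1 word was in 1.87%, 3.13%, 5.21% and 14.5% of closed promoters, against 12.3%, 16.9%, 21.0% and 25.2% of open ones. Across the 5 bins of GC content, the highest of which held 10 closed promoters, the ETS word ranged from 9.09% to 18.5% in closed promoters and from 18% to 40% in open ones. The gap was present in developmental genes, at 8.28% of closed and 14.4% of open promoters for the ETS word and 2.76% and 9.09% for the NRF1 word. In genes neither developmental nor germline it was 13.5% and 32.7% for the ETS word and 3.77% and 19.3% for the NRF1 word. The few germline promoters had the ETS word in 25% of closed and 48.4% of open ones. For the NRF1 word their order was the other way, at 31.25% of closed and 22.6% of open ones. Both closed and open developmental promoters thus held these words less often than the open promoters of other genes.

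Closed CpG-rich promoters were somewhat poorer in CpG than open ones, and this moved with the closed share. The median CpG ratio was 0.727 in closed and 0.803 in open promoters, and the median GC content 63.3% and 62.4%. The closed share was 12.3% at ratios of 0.6 to 0.7, 6.53% at 0.7 to 0.8, 4.17% at 0.8 to 0.9 and 3.57% above 0.9. For developmental genes it was 48.2%, 42.9%, 30.3% and 29.7% over the same bins. Across the GC bins it stayed between 5.18% and 8.70%. The CpG-rich stretch around the 5′ end, measured in 200 bp windows with GC above 50% and a ratio above 0.6, had a median of 770 bp in closed and 870 bp in open promoters. Closed developmental promoters had 850 bp, against 950 bp for open ones, and closed germline promoters 635 bp, against 900 bp. Single classes could go the other way. Closed basic helix-loop-helix promoters had 1180 bp, against 800 bp for open ones, and zinc finger, ion channel and histone genes also had the longer median when closed. The longest stretches at closed promoters were those of Insm1, a zinc finger factor of newborn neurons, at 2680 bp, and of Foxe1 at 2480 bp. Next came Foxl2, the factor of the ovary and eyelid, at 2430 bp, and Foxd3, the neural crest factor, at 2330 bp. Slc18a3, the vesicular acetylcholine transporter, had 2140 bp. Closed refers to 500 bp around the transcript starts and not to the whole stretch. The nearest peaks of Insm1, Foxl2 and Foxe1 lay at 509, 580 and 812 bp in replicate 2. In replicate 1 they lay at 6977, 24553 and 17730 bp. A stretch above 1500 bp was found at 24 closed (4.51%) and 471 open promoters (6.36%).

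Annotation and copy number also moved with the closed state, and their part in the result was not tested. Closed genes had a median of 2 annotated transcript starts, against 5 for open genes, and 181 closed genes (34.0%) had a single start, against 743 open ones (10.0%). A peak near any of a gene's starts takes it out of the closed set. A transcript of support level 1, the best supported class, began at the 5′ end of 72.4% of closed and 73.9% of open genes. Fewer than 90% of the 36 bp words of the window occurred once in the genome at 58 closed (10.9%) and 331 open promoters (4.47%), and not a single unique word was left at 30 closed and 0 open promoters. Reads of 36 bp from a window without a unique word have no unique place. Those without a unique word include Hist1h2ao, Hist1h2ap, Hist1h2bq, Hist1h2br and the pairs Srp54b and Srp54c and Plac9a and Plac9b. Hist2h3c1 had 3.73% unique words, and 29 of the 52 clone-named genes lay below 90%. With every CpG-rich promoter below 90% left out, open ones included, 6.06% of the rest were closed. The share was 8.49% for the clone-named genes and 38.9% for the developmental ones. Just 6 of the 37 CpG-rich histone promoters were left, and none of these was closed.

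The nearest peak to a closed promoter was usually several kilobases away. From a transcript start the median distance came to 7264.5 bp in replicate 1 and to 5031.5 bp for replicate 2, with interquartile ranges of 2905 to 16492.8 bp and 1981 to 11406.2 bp. It lay within 2000 bp for 94 members in replicate 1 and 134 in replicate 2, and for 83 in both. It lay beyond 50 kb for 36 and 25 members, and for 20 in both. These 20 included Foxd3, Tbx20 of the heart, Sim1 of the hypothalamus, Twist1 of mesenchyme, and Isl1 and Pou4f1 of motor and sensory neurons. For Foxd3 the distances were 56665 bp in replicate 1 and 59182 bp in replicate 2, for Tbx20 73400 and 73280 bp, for Twist1 94498 and 55907 bp, and for Isl1 134012 and 83594 bp. Sim1 lay at 190254 and 51257 bp. Others of the 20 were predicted genes such as Gm3020 and Gm3488, and the greatest distance, 482447 and 482404 bp, belonged to the predicted gene Gm21953. In the promoter windows of Gm3488 and Gm21953, 0% of the 36 bp words were unique, and in that of Gm3020 1.76%. Few or no reads of 36 bp could be placed uniquely in these windows, so these distances are less certain. Foxd3, Tbx20, Sim1 and Twist1 had 100% unique words, and Isl1 97.7%. The nearest peak was the promoter peak of another protein-coding gene for 78 members in replicate 1 and 62 in replicate 2. The rule fixes that these distances exceed 500 bp. From the gene's 5′ end to the nearest distal peak, the medians were 10525 and 7559 bp for closed CpG-rich promoters. They were 7431.5 and 5351.5 bp for open CpG-rich ones, and 21169 and 14381.5 bp for closed CpG-poor ones.

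Classes differed in these distances. Forkhead, Sox and T-box members had medians of 24816 bp in replicate 1 and 11114 bp in replicate 2, and basic helix-loop-helix members 16641 and 9407 bp. The Hox members had 7338 and 5181 bp, the other homeobox members 9756 and 7822 bp, and signalling members 5782 and 2855 bp. Ion channel members had 4465 and 3338 bp, and germline members 6050.5 and 6010.5 bp. Spread within each class was wide, and the ranges of these classes overlapped in both libraries.

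**Figure D3:**
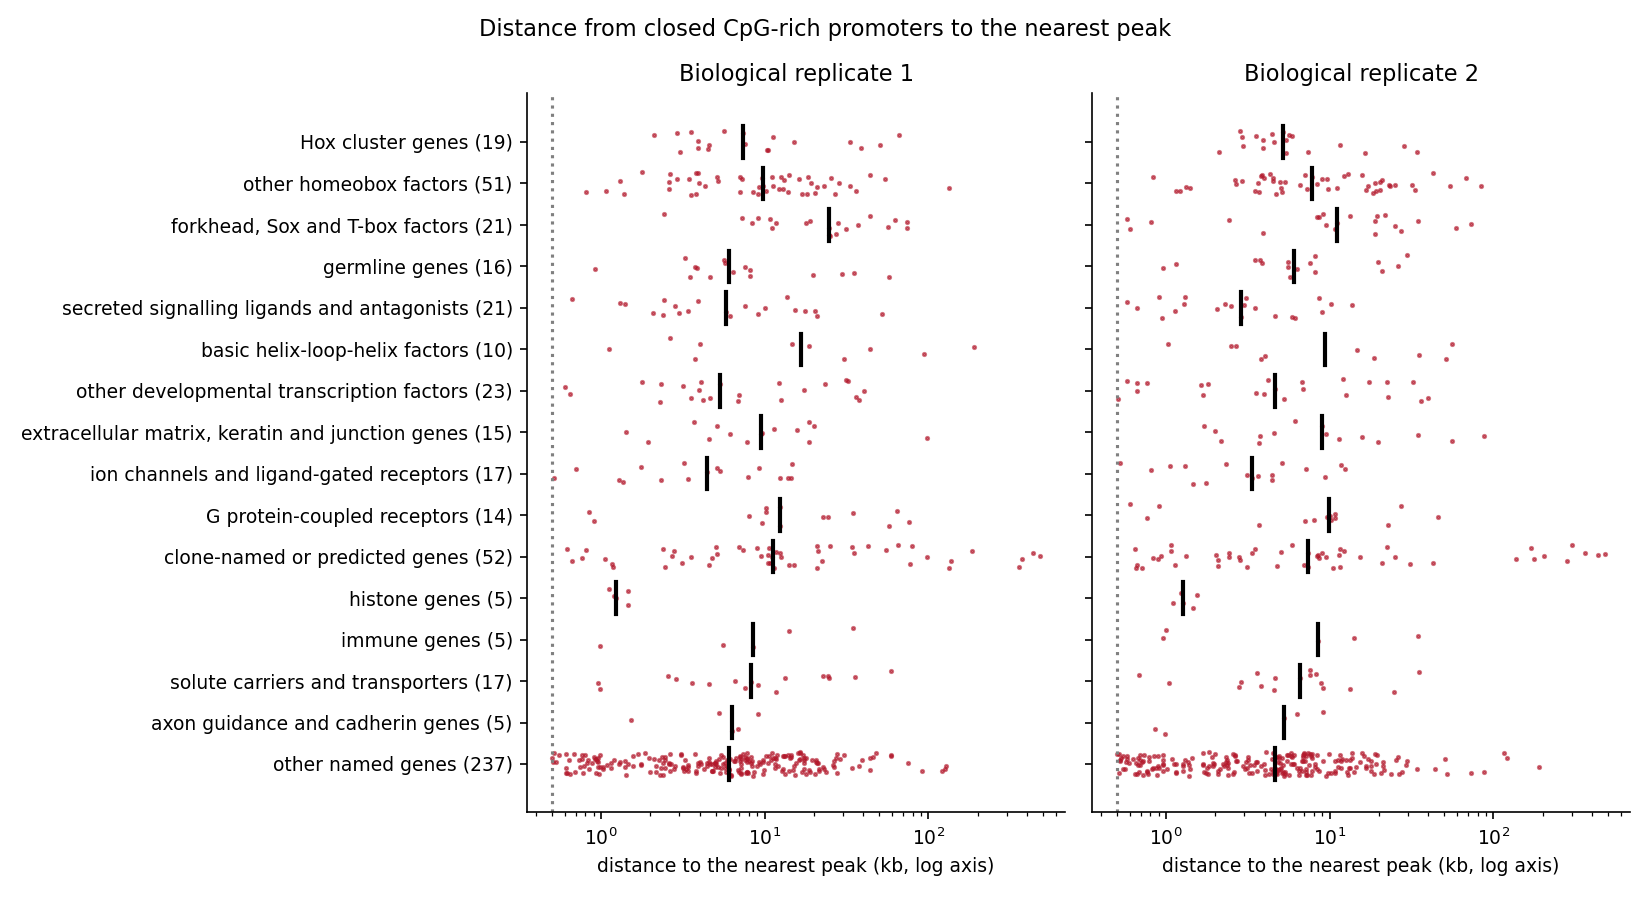
Each point is a closed CpG-rich promoter, the x axis is the distance in kb (log axis) from its transcript starts to the nearest peak, rows are gene classes with their number of members, black bars are medians and the dotted line is the 500 bp limit of the rule. Forkhead, Sox and T-box promoters have the longest median in replicate 1, at 24816 bp, and histone promoters the shortest in both, at 1227 and 1276 bp.

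Over all classes, closed and open CpG-rich promoters had the same median number of distal peaks nearby. The median number within 50 kb was 4 in replicate 1 and 5 in replicate 2 for closed CpG-rich promoters, 4 and 5 for open CpG-rich promoters, and 2 and 3 for closed CpG-poor promoters. No distal peak lay within 50 kb of 44 closed CpG-rich promoters in replicate 1 and 27 in replicate 2 (8.27% and 5.08%), against 312 and 108 open ones (4.21% and 1.46%). Of all CpG-rich genes, 95.5% and 98.2% had at least 1. In both libraries at once 24 members had none, and 8 of these had at least 90% unique words. The closed developmental promoters had medians of 3 and 5, against 4 and 5 for the open ones, and the closed germline promoters 2 and 4, the same as the open germline promoters. Within the developmental classes the closed promoters had fewer in some cases, with 3.5 and 3 for basic helix-loop-helix factors, against 6 and 7 for open ones, and 3 and 5 for forkhead, Sox and T-box factors, against 5.5 and 6.5. Signalling genes had 4 and 6, against 3 and 5.

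The difference from open promoters was widest in the nearest 2 kb. From 500 to 1000 bp of the 5′ end there were 5.08 and 9.77 distal peaks per 100 kb around closed CpG-rich promoters in replicates 1 and 2, against 19.8 and 22.0 around open ones. From 1 to 2 kb there were 4.32 and 6.48, against 12.8 and 14.1. A peak that reaches the 500 bp around a protein-coding start is not distal, and is counted in neither set. Closed and open promoters were chosen by peaks in that window, and the part of this choice in the gap was not tested. From 2 to 5 kb the densities were 3.88 and 5.36, against 4.93 and 5.43, and from 20 to 50 kb 4.54 and 5.87, against 4.41 and 5.62. Around closed CpG-poor promoters they were 2.50 and 3.45 from 2 to 5 kb and 2.79 and 3.59 from 20 to 50 kb. Closed developmental promoters had 1 peak from 500 to 1000 bp over 145 genes in replicate 1 (0.690 per 100 kb), and 8 in replicate 2 (5.52 per 100 kb). From 2 to 5 kb they had 5.17 and 5.40 per 100 kb.

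**Figure D4:**
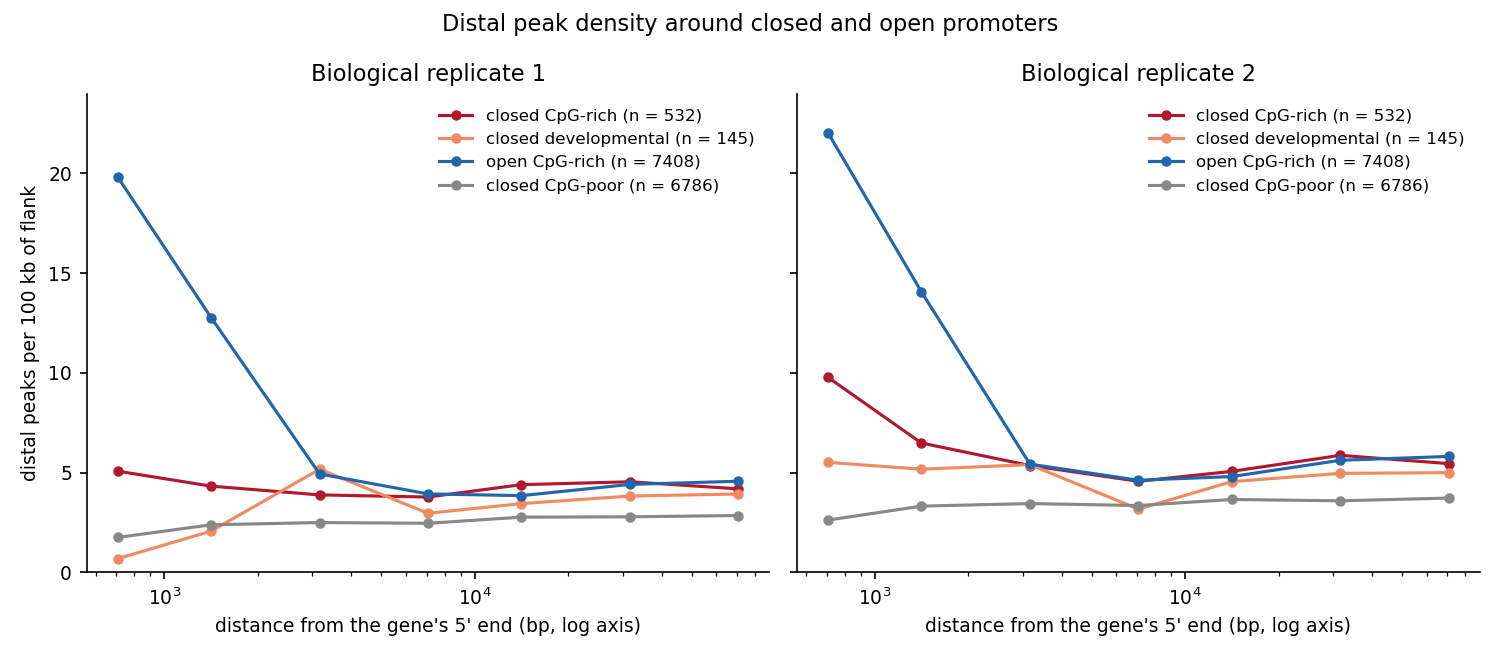
Lines give the number of distal peaks per 100 kb of flanking sequence in bins of distance from the gene's 5′ end (bp, log axis, each point at the geometric middle of its bin), for all closed CpG-rich promoters, the closed developmental ones among them, open CpG-rich and closed CpG-poor promoters, in each library. Closed CpG-rich promoters lie below open ones up to 2 kb and near them from 5 kb on, and above closed CpG-poor promoters in every bin.

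The distal peaks that had a closed CpG-rich promoter as their nearest protein-coding start numbered 1561 in replicate 1 and 2215 in replicate 2. They were 2.09% and 2.12% of distal peaks on these chromosomes and belonged to 378 and 413 of the members. Their signal, the authors' own value per peak, had a median of 0.582 and 0.565, against 0.570 and 0.557 for peaks nearest to open CpG-rich promoters. Their median GC content was 53.0% and 50.8%, against 51.1% and 48.8%. They lay between genes more often, at 50.2% and 50.8%, against 40.2% and 40.0%, and in introns less often, at 41.4% and 42.0%, against 51.2% and 52.9%. In replicate 1, 84.1% overlapped a peak of the other library, and in replicate 2, 59.6%, against 80.4% and 58.6% for peaks nearest to open promoters. Those found in both libraries had median signals of 0.636 and 0.795, and those found in 1 library 0.345 and 0.382. Of the motif words, CAGCTG was in 20.9% of peaks near closed and 20.9% of peaks near open promoters in replicate 1, and TGANTCA in 9.87% and 10.7%. Some rarer words differed more in proportion, though on few peaks. The NRF1 word was in 0.641% and 0.359% in replicate 1 and in 0.497% and 0.284% in replicate 2. TTCGCGC was in 0.577% and 0.285% and in 0.361% and 0.234%. Near closed promoters these shares stand for 10 and 11 peaks with the NRF1 word and 9 and 8 with TTCGCGC. Most peaks near closed promoters overlapped a peak of the other library, so the replicates are not separate counts. GGGCGG was in 10.1% and 8.66% and in 8.80% and 6.93%, and TATAAA in 3.97% and 5.90% and in 6.09% and 8.17%. Median GC content, given above, was higher near closed promoters, and its part in these shares was not tested.

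Transfer RNA genes were one annotated feature that these distal peaks held more often. A tRNA gene of RefSeq overlapped 12 of the 1561 peaks in replicate 1 (0.769%) and 17 of the 2215 in replicate 2 (0.767%), against 51 (0.140%) and 65 (0.130%) of the peaks nearest to open CpG-rich promoters, and 0.361% and 0.323% for closed CpG-poor ones. Among all distal peaks the shares were 0.224% and 0.199%. A tRNA gene lay within 50 kb of 13 members, and the same number was not counted for other genes. Pom121l2 had 16 tRNA genes within 50 kb and BC107364 had 15. How many of the overlapping peaks lay at these loci was not counted. The overlap with tRNA genes was looked at after the strongest peaks were seen.

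The 3 strongest distal peaks shared by both libraries are shown, by their mean deposited signal among those nearest to closed promoters. The Wnt11 peak ranked lower, and is shown as the strongest whose nearest gene is in a developmental class. Each is given as called in replicate 1, on the plus strand of mm10, from RefSeq's GRCm38.p6, with matches to any of the 16 motif words in capitals. Distances are from the peak's middle to the nearest start of the gene. The strongest, chr6:49236421-49236620, lay 21563 bp from Igf2bp3, an RNA-binding protein of embryonic tissue, and had signals of 9.94 in replicate 1 and 13.1 in replicate 2. Just 42 of its 165 words of 36 bp occurred once in the genome (25.5%), so that reads of other copies could be counted there, which was not tested. It held no motif word. The second, chr13:48878741-48878800, lay 7651 bp from Phf2, a histone demethylase, with signals of 6.43 and 5.58, and held the GC box CCGCCC on the plus strand. The third, chr11:116671461-116671720, with signals of 5.33 and 6.08, lay 8088 bp from St6galnac2, a sialyltransferase, and covered the start of the noncoding gene 1810032O08Rik. It held the NRF1 word and GTTGCC. The peak chr7:98815261-98815520, 19722 bp from Wnt11, had signals of 4.17 and 3.67. It held the NRF1 word, CCAAT, an E2F word that overlaps it, and CAGCTG, and it covered the tRNA gene n-TPtgg8.
Igf2bp3 distal peak: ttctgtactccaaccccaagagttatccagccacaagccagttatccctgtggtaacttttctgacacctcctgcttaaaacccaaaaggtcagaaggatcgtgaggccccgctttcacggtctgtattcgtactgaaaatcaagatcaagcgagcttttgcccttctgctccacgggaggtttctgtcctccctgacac
Phf2 distal peak: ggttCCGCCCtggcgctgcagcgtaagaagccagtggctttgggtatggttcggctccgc
St6galnac2 distal peak: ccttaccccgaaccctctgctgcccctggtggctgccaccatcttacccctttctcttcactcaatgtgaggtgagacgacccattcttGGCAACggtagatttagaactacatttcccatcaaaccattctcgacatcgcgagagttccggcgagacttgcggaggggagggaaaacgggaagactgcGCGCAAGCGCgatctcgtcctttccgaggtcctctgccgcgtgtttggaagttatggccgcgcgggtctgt
Wnt11 distal peak: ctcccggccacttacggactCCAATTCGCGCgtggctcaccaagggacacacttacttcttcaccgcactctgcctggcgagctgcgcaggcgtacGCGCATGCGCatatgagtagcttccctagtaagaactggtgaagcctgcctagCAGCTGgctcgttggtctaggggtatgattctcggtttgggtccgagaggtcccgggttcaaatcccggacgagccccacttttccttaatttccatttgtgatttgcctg

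The other strongest shared distal peaks were 2 peaks near the predicted gene Gm10775, with signals of 5.61 and 5.74 and of 4.59 and 4.44, and peaks near Stx11 (4.87 and 5.64), Trpv4 (3.93 and 5.16), Plxdc1 (3.42 and 4.31) and Skor1 (3.26 and 3.96). The Stx11 and Plxdc1 peaks overlapped the tRNA genes n-TLtaa3 and n-TCgca55, and the Skor1 peak lay 183 bp from the start of the small nuclear RNA gene Gm25064. Among these 9 further peaks, Phf2, St6galnac2 and Wnt11 included, at least 81.3% of the words were unique. Of all distal peaks nearest to a closed CpG-rich promoter, 59 in replicate 1 (3.78%) and 65 in replicate 2 (2.93%) had a noncoding start within 500 bp, against 3.62% and 3.11% of those nearest to open CpG-rich promoters.

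Each Hox cluster held some peaks, though nearly all of its CpG-rich promoters were closed. The Hoxa cluster on chromosome 6, from 52155590 to 52260880, held 4 peaks in replicate 1 and 6 in replicate 2 over 105291 bp. The Hoxb cluster on chromosome 11 held 6 and 8, the Hoxc cluster on chromosome 15 held 2 and 4, and the Hoxd cluster on chromosome 2 held 3 and 3. The highest signal in them was 1.15 and 1.34 in Hoxa, 1.09 and 1.81 in Hoxb, 0.933 and 1.79 in Hoxc, and 0.703 and 1.42 in Hoxd. Distances from the 19 closed Hox promoters to the nearest peak ran from 2115 bp at Hoxd8 to 66378 bp at Hoxc13 in replicate 1, and from 2115 bp at Hoxd8 to 34064 bp at Hoxc12 in replicate 2. The libraries differed most at Hoxc13, at 66378 and 28298 bp. Hox promoters of a cluster lie close together, so their values are not separate observations. Hoxa13 had 5 distal peaks within 50 kb in each library, Hoxb9 had 5 and 7, and Hoxc12 had 0 and 2.

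Among single members, distal peaks within 50 kb ranged from 0 to 27 in replicate 1 and from 0 to 23 in replicate 2. The highest counts seen in both libraries were those of Gm12184, with 18 and 16, and of Kcnc4, a Kv3 potassium channel, with 16 and 14. Bhlhe23, a factor of retinal and forebrain neurons, had 13 and 11, Slc5a5, the thyroid iodide transporter, 14 and 11, Col8a2, a collagen, 13 and 10, and Draxin, an axon guidance protein, 12 and 10. Wnt6 had 9 and 11, Tfap2e 15 and 9, and Foxe1 8 and 11. At the low end, Isl1, Sim1 and Foxd3 had 0 in both libraries, Dmrt1, the factor of the testis, had 1 and 1, and Grik3 had 1 and 3.

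For 6 members the libraries differed by at least 10 distal peaks. Sycp2 had 27 in replicate 1 and 4 in replicate 2, Gbx1 18 and 5, Ahnak2 20 and 7, and Tbx1 14 and 4. Plxdc1 had 7 and 23, and Fam83f 9 and 21. In the library with more peaks, those found in it alone had lower signals than the shared ones. Those found in replicate 1 alone had median signals of 0.182 near Sycp2, 0.151 near Ahnak2, 0.364 near Gbx1 and 0.551 near Tbx1, while the shared ones had 0.460, 0.703, 0.879 and 1.16. Those found in replicate 2 alone had 0.596 near Plxdc1 and 0.445 near Fam83f, against 2.19 and 1.04 for the shared ones. Gbx1 had 5 shared peaks in each library and Ahnak2 5 in each. A shared peak overlaps a peak of the other library by definition, so near-equal shared counts are built in and do not measure agreement.

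**Figure D5:**
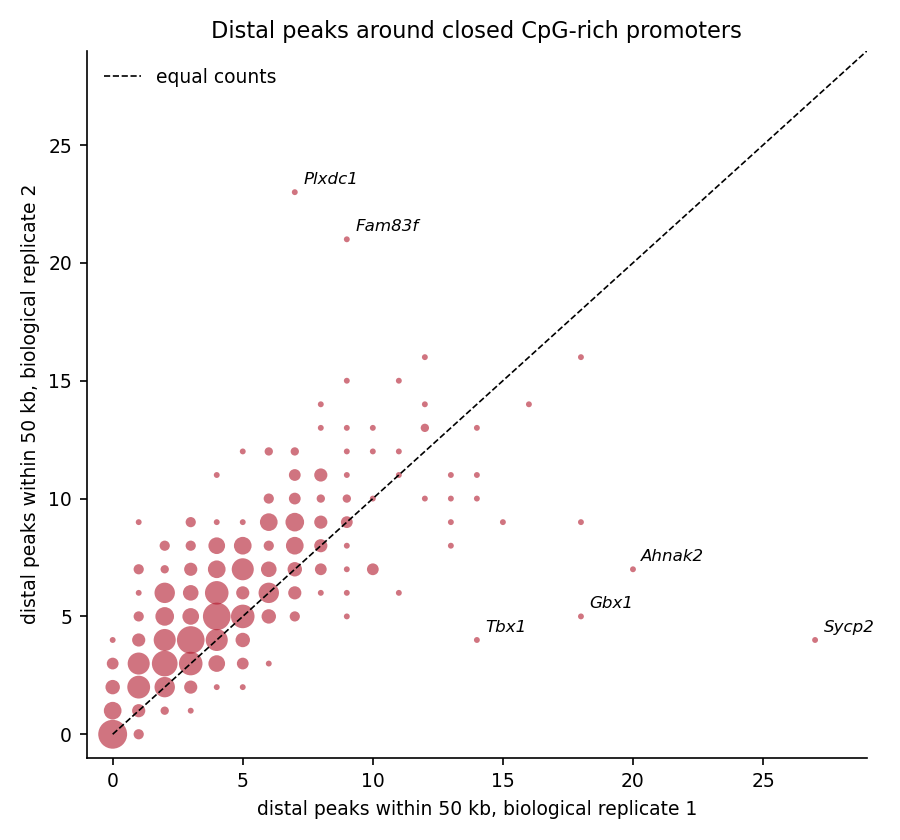
Each point is a pair of counts of distal peaks within 50 kb of a closed CpG-rich promoter, replicate 1 on the x axis and replicate 2 on the y axis, and its area grows with the number of members that share the pair. Most members lie near or above the line of equal counts, and the 6 named genes differ by at least 10 peaks.

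Listed bases of low false discovery rate were rare at the closed promoters. The members were chosen for having no peak of the same libraries in this window, so their rarity is partly set by the rule. Open promoters were not counted for this. The lists of bases with a false discovery rate below 0.05 held a base within 500 bp of a transcript start for 19 members in replicate 1 and 27 in replicate 2, for 39 in either and 7 in both, and 493 members (92.7%) had none. Kdelc2 had 280 bases in replicate 1, the most there, and 255 in replicate 2, with its nearest peak at 616 and 576 bp. Scrt1, a factor of newborn neurons, had 149 and 142 bases, Prtg 73 and, the most in replicate 2, 262, and Flvcr2 64 and 81. Prtg was the single member with a peak of the smaller list within 500 bp. These were 3.57% and 5.08% of the closed CpG-rich promoters, against 83 (1.22%) and 129 (1.90%) of the closed CpG-poor ones. A footprint, a short protected stretch inside cut chromatin, was listed within 500 bp of Scrt1 in replicate 1 and of Ank1 and Shc2 in replicate 2.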

How the data were processed

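DNase-seq peaks of 2 mouse hippocampus libraries were used as deposited in mm10, the build that the deposited notes give. Each library has a larger and a smaller peak list. For the aligner and the peak caller, names and versions are not given in these sources. The peaks of each library came from that library's own alignments, per the deposited notes. The deposited value per peak is the authors' signal, on a scale that those notes do not state, and it was not rescaled between libraries. The deposited list of low false discovery rate bases holds values below 0.05, which are treated here like an adjusted p-value, and the deposited footprint list was made at a threshold of 0.01, as each of its lines states.

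Genes and transcript starts came from GENCODE M21 and sequence from RefSeq's GRCm38.p6 FASTA, the assembly of mm10, with Python 3.11.15, numpy 2.4.6, pandas 2.3.3 and matplotlib 3.10.9. CpG ratio is the number of CpG times the window length over the product of the C and G counts. Distances run from a transcript start to the nearest base of a peak, and for the 10 strongest distal peaks to the peak's middle. Those to the nearest distal peak run from the gene's 5′ end. Distal counts use peaks that touch 50 kb on either side of the gene's 5′ end. Peaks were called shared with 1 bp of overlap. Interval, word and motif searches were tested on simulated data. Classes are exclusive lists of 20 symbol patterns. These patterns were corrected at 2 genes, Bmp2k and Prrxl1, after values were seen.

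The members, gene lists and motif words were chosen with earlier results of these data known. The rule for named genes was: per class with at least 5 members the 2 with the most and the 1 with the fewest distal peaks within 50 kb, closed Hox genes, the 10 strongest shared distal peaks, the 5 longest CpG-rich stretches and the genes at each limit. Other names (families, germline and brain genes, tissue markers, low false discovery rate and tRNA loci, and genes at which the libraries differ) were chosen after their values were seen. Some genes that the rule selects are not reported here. No test was run, because there is 1 group, the peaks chose the members and genes are not replicates. Alternatives were other promoter windows, the gene's 5′ end alone, the smaller peak list, each library left out, stricter CpG, GC, word and support limits, other distal windows, and other stretch, motif and overlap settings.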

Additional observations from a re-analysis of the deposited data

How the results depend on the processing

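No paired analysis was possible because the study has 1 group of libraries. The 532 closed promoters became 870 with the smaller peak list and 240 with a CpG ratio above 0.75, and lay between 602 and 755 with a replicate left out. The developmental share of 38.9% became 43.4% with a 250 bp window, 35.4% with 1000 bp, 31.6% with 2000 bp, 43.2% with the gene's 5′ end alone, 50.7% with the smaller list, 35.3% with a CpG ratio above 0.75 and 41.6% with a well supported start, and lay between 43.4% and 45.3% with a replicate left out. It stayed above the share of all CpG-rich promoters in each of these. The distance to the nearest peak, 6148 bp as the mean of the 2 libraries' medians, became 8462.5 bp with the 2000 bp window and 9033.5 bp with the smaller list. The 4.5 distal peaks within 50 kb became 2.5 with the smaller list, 1.5 within 20 kb, 9.5 within 100 kb and 3 with shared peaks. The stretch difference of -100 bp, closed minus open, became -70 bp with GC above 55% and -80 bp with 500 bp windows. The share with a low false discovery rate base, 4.32% as the mean of both libraries, became 2.35% within 250 bp and 0.470% at a limit of 0.001. The cause of these moves was not tested beyond what each setting itself changes.

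Of 176 class shares under an alternative, 8 changed side of the share of all CpG-rich promoters, in the axon guidance, histone, immune and solute carrier classes. Of 16 motif differences, 6 changed sign in the 300 bp upstream, and the ETS, NRF1 and YY1 words were not among them. Read depth is unknown, and a closed promoter is one below the peak caller's limit in these pools. With 2 libraries, the spread between pools is known from 2 values.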

Other observations

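The NRF1 word was in 5 of the 16 closed germline promoters, against 7 of 31 open germline promoters, and the ETS word in 4 of 16, against 15 of 31. These counts are small and are given as values.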
